A study of Mus musculus with 4 samples.

Results

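The 10 genes described here move calcium and magnesium through the later segments of the kidney tubule. They were chosen by name from a deposited table of cluster averages, as 10 of its 21456 genes, and were read in each of its 21 clusters of nuclei and in 4 mouse genotypes. Trpv5, S100g, Calb1, Slc8a1 and Atp2b1 form the route by which calcium crosses the tubule cell. Trpm6, Cnnm2 and Egf belong to magnesium uptake, and Cldn16 and Cldn19 to the path between the cells. All 10 genes were found in the table.

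Calcium that escapes the earlier tubule enters cells of the distal convoluted tubule and connecting tubule through the channel TRPV5, is buffered by the calbindins, and leaves through the sodium-calcium exchanger and the plasma membrane calcium pump. Parathyroid hormone and active vitamin D raise this transport. Magnesium is taken up by TRPM6 channels in the distal convoluted tubule, where epidermal growth factor stimulates the channel. In the thick ascending limb both ions pass between the cells through pores built of claudin-16 and claudin-19.

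Nuclei were isolated from frozen kidney cortex of C57BL/6J mice and profiled by droplet-based RNA sequencing, with 1 library for each genotype. The genotypes were wild type (WT), Sco2KO/KI and db/db, and the combination of the last pair, Sco2KO/KI;db/db, called the double mutant below. Sco2 delivers copper to cytochrome c oxidase as that enzyme is built, and Sco2KO/KI animals carry 1 knockout and 1 knock-in allele of it. The db/db mutation disables leptin receptor signalling and brings obesity and diabetes. Age, and whether a library was 1 animal or pooled, were not given in the sources used here, nor was the change made by the knock-in. Without replicates no difference was tested, and every value below describes these 4 libraries only.

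A level is the mean over the nuclei of a cluster of UMIs scaled to 10000 per nucleus, where a UMI is a tagged RNA molecule. Unless libraries are named, 4 values stand for WT first, then Sco2KO/KI, then db/db and last the double mutant. The libraries held 5152, 1179, 4576 and 5269 nuclei with about 3344, 5228, 2852 and 2261 UMIs per nucleus, all estimated from the lowest deposited values. The Sco2KO/KI library was thus the smallest and the deepest. Proximal tubule transcripts were found in every cluster described: the 14 proximal tubule markers summed to 55.5, 56.9, 14.5 and 17.1 in cluster 5, and the sums in clusters 4, 8 and 12 were likewise lower in both db/db libraries. Most of that gap was 1 gene, Kap, which is androgen-regulated in mouse kidney and was at 32.0, 34.8, 3.98 and 2.83 in cluster 5; the other 13 markers, a split made after seeing the values, summed to 23.4, 22.1, 10.5 and 14.2. Fewer cells of a type and less RNA per cell are kept apart in this table only as far as the recovered numbers of nuclei allow.

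Clusters were named from markers that include none of the 10 genes. Cluster 4 was thick ascending limb-like, with 9 of 10 markers more than 2-fold above the other clusters, and cluster 5 was distal convoluted tubule-like, with 9 of 9. Cluster 8 carried 5 of 7 connecting tubule markers and also 9 of 9 principal cell markers. These lists overlap, as Scnn1b, Scnn1g and Hsd11b2 are on both. Cluster 12 carried 8 of 9 distal convoluted tubule and 6 of 7 connecting tubule markers and stayed unnamed. These 4 clusters held 622, 349, 197 and 134 nuclei in WT and 84, 52, 33 and 32 in Sco2KO/KI, in the order 4, 5, 8 and 12. In the same order of clusters, db/db had 327, 334, 189 and 141 and the double mutant 179, 366, 319 and 204. Cluster 13 was principal cell-like and cluster 9 endothelium-like, and clusters 0, 1, 2, 3 and 7 formed the proximal tubule-like class. Clusters 14 and 10, which enter some pooled values below, had thick ascending limb and distal convoluted tubule as their first marker class. The proximal tubule was the second class of both. Their nuclei were deep, with about 5906, 13501, 5523 and 3981 UMIs each in cluster 14 and 6910, 10469, 6436 and 4805 in cluster 10.

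Of the 10 genes, 9 had a promoter in the RefSeq table of mouse build GRCm38.p6. The promoters of S100g and Trpv5 are shown because these genes had the same home cluster and were each above 2-fold higher in the double mutant than in WT there. The S100g sequence lies at chrX:162964570-162964849 and the Trpv5 sequence at chr6:41680694-41680973, both on the minus strand of GRCm38.p6, and each runs from 250 bases before to 30 bases after the annotated start. Capitals mark the TATA box letters TATAAA.
S100g: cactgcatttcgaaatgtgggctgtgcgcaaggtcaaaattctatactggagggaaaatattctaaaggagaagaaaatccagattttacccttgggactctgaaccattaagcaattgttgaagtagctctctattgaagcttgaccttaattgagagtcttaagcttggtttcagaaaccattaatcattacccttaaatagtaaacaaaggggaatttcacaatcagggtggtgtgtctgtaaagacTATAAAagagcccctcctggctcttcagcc
Trpv5: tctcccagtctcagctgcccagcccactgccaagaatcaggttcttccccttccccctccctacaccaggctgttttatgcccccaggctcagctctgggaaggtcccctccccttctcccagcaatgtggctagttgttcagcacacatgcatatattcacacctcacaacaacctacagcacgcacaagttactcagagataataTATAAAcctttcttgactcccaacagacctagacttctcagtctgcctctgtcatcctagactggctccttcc

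The letters TATAAA, searched on both strands, began at base 208 of the Trpv5 window and at base 251 of the S100g window, which is the annotated start itself. They were found in 2 of the 12 promoter windows of the 9 genes and in 13.6% of all 32851 windows of 300 bases. GGGCGG, a GC box, was found in 5 of the 12 windows, those of Cldn19, Atp2b1 and Cnnm2, against 35.7% of all. The DR3 type of vitamin D response element, searched by its consensus, was in 0 of the 12 windows and in 0.0396% of all, so these letters are not in these windows.

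**Figure D1:**
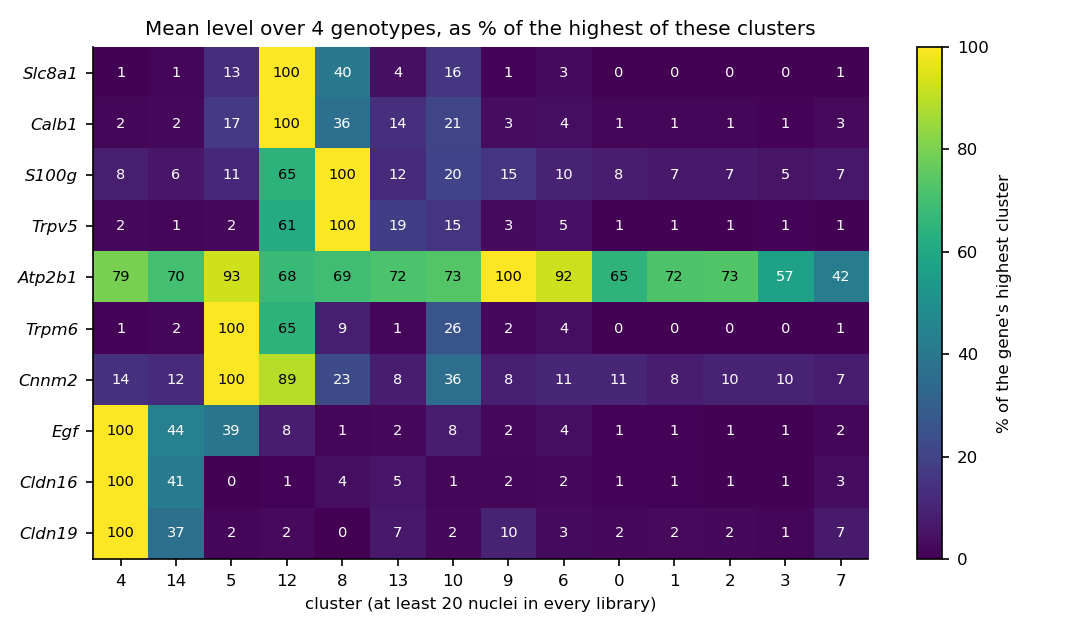
Mean level over the 4 genotypes of each gene (rows) in the 14 clusters with at least 20 nuclei in every library (columns), as a percentage of the gene's highest of these clusters. The calcium genes sit in clusters 12 and 8, Trpm6 and Cnnm2 in clusters 5 and 12, Egf and the claudins in clusters 4 and 14, and Atp2b1 in all of them.

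Apart from Atp2b1, each gene had its highest level in 1 of 4 neighbouring tubule clusters. The home cluster of a gene is the cluster with its highest mean over the genotypes, among the 14 clusters with at least 20 nuclei in every library. It was cluster 8 for S100g and Trpv5, cluster 12 for Slc8a1 and Calb1, cluster 5 for Trpm6 and Cnnm2, and cluster 4 for Egf, Cldn16 and Cldn19. The order of the top 2 clusters was the same in all 4 libraries for Slc8a1, Calb1, S100g, Trpv5 and Trpm6. Cnnm2 was higher in cluster 5 than in cluster 12 in WT and Sco2KO/KI, and lower in db/db and the double mutant. Egf differed from the other genes of cluster 4 in reaching 39.0% of its highest mean in cluster 5, where Cldn16 and Cldn19 were near 0.

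Trpv5, the channel through which calcium enters the cell (chr6:41652173-41680769, minus strand, mm10), was at 1.79, 3.08, 1.80 and 3.82 in cluster 8. It was at 0.893, 1.49, 1.37 and 2.70 in cluster 12. In both clusters the double mutant was the highest and WT the lowest. These low levels rest on about 64.0, 34.6, 65.2 and 210.3 UMIs in cluster 8. In the principal cell-like cluster 13 Trpv5 was listed at 0 in WT and at 0.735, 0.169 and 1.05 in the others, and in clusters 4 and 5 it stayed below 0.5 in every library. The related intestinal channel gene Trpv6 was at most 0.25 in clusters 4, 5, 8 and 12.

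S100g encodes calbindin-D9k, a small calcium buffer whose gene responds to vitamin D (chrX:162961992-162964599, minus strand). It was at 13.1, 18.7, 5.92 and 27.4 in cluster 8 and at 6.18, 9.23, 5.55 and 21.2 in cluster 12. The db/db library was the lowest and the double mutant the highest in both, and in cluster 8 the double mutant had 4.63 times the db/db level. S100g is a short gene of 2.61 kb, and its highest cluster mean was 62.4 per 10 kb of gene, above the 20.0 of Slc8a1, which spans 365 kb, and the 14.2 of Calb1. It lies within Ctps2 on the opposite strand, a gene of cytidine nucleotide synthesis that was at 0.418, 1.11, 0.861 and 0.529 in cluster 8. Strand use in counting was not given in the sources used here, so reads of these genes cannot be told apart.

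Calb1 encodes calbindin-D28k, the other calcium buffer (chr4:15881264-15908064, plus strand). Its level in cluster 12 was 19.2, 24.5, 41.3 and 67.4, and the 4 libraries came in the same order in cluster 8, at 6.53, 6.93, 11.03 and 31.1. Both libraries with the db/db mutation lay above both without it in these clusters. In cluster 5 the order was different, with 5.20, 3.61, 8.69 and 7.87. In cluster 13 Calb1 was at 1.27, 5.74, 3.38 and 10.8.

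Slc8a1, the sodium-calcium exchanger NCX1 of the basolateral membrane (chr17:81373105-81738377, minus strand), had the highest levels of the 10 genes. In cluster 12 it was at 605, 612, 805 and 902. In cluster 8 it was at 219.5, 254.9, 263 and 445. In both clusters the double mutant was the highest and WT the lowest, and in cluster 12 the level in Sco2KO/KI was 1.01 times that in WT. In cluster 5 the values were 131, 28.0, 94.8 and 126, so that the Sco2KO/KI library alone was low.

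The number of cluster 12 nuclei for each cluster 5 nucleus was 0.384, 0.615, 0.422 and 0.557, higher in both Sco2 mutant libraries than in WT and db/db. With clusters 5 and 12 joined and weighted by nuclei, Slc8a1 was at 262.6, 250.5, 305 and 403, and the log2 ratio of Sco2KO/KI to WT was -0.07 in place of -2.22. The joined levels of Calb1 were 9.09, 11.6, 18.4 and 29.2. The joined values kept the double mutant highest for both genes. Joining the clusters was chosen after seeing the data.

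Atp2b1, the plasma membrane calcium pump PMCA1 (chr10:98914406-99026143, plus strand), was present in all clusters at levels of the same order, unlike the other 9 genes. Among the 14 clusters with at least 20 nuclei in every library its mean lay between 0.890 in cluster 7 and 2.12 in the endothelium-like cluster 9. In cluster 9 it was at 1.73, 2.20, 2.57 and 1.99, and in cluster 8 at 1.57, 1.61, 1.43 and 1.28. A different library was the highest in each. In clusters 8 and 12, where the other calcium genes were highest in the double mutant, that library was the lowest for Atp2b1, with 1.07 in cluster 12.

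Trpm6, the magnesium channel of the distal convoluted tubule (chr19:18749983-18892511, plus strand), was at 25.3, 27.7, 23.5 and 31.7 in cluster 5. It was at 13.5, 14.8, 20.5 and 21.3 in cluster 12. The highest of the 4 libraries was 1.35 times the lowest in cluster 5, the narrowest span of the genes with a level above 5. Outside clusters 5, 12 and 10 its mean was at most 2.32. With clusters 5 and 12 joined, it was at 22.0, 22.8, 22.6 and 28.0.

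Cnnm2, a basolateral protein of magnesium balance whose mutation causes inherited magnesium loss in humans (chr19:46761596-46880192, plus strand), was at 9.96, 6.18, 8.71 and 3.71 in cluster 5. The 2 libraries with the Sco2 mutation were the lowest. In cluster 12 it was at 5.94, 3.82, 10.0 and 5.76, and again the Sco2 mutant library was below its partner on each background. In cluster 8 the 4 values lay between 1.55 and 1.76. Joined over clusters 5 and 12, Cnnm2 was at 8.84, 5.28, 9.10 and 4.45.

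Egf, the growth factor that stimulates TRPM6 (chr3:129677565-129755316, minus strand), was at 77.7, 130.2, 52.6 and 107.8 in cluster 4. It was at 27.9, 56.3, 16.9 and 42.6 in cluster 5 and at 42.6, 45.7, 20.2 and 52.1 in cluster 14, which carried thick ascending limb markers at a lower level. In all 3 clusters the db/db library was the lowest and each Sco2 mutant library lay above its partner on the same background. Egf overlaps antisense genes on the other strand, of which Gm42697 reached 0.715 and 6330410L21Rik 0.467 in cluster 4, both in Sco2KO/KI.

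Cldn16 (chr16:26463135-26482765, plus strand) and Cldn19 (chr4:119255414-119262438, plus strand) encode the cation pore of the thick ascending limb and were low. Cldn16 was at 0.622, 1.42, 0.851 and 0.825 in cluster 4, resting on about 74.9, 43.1, 54.0 and 27.7 UMIs. Cldn19 was at 1.00, 0.854, 1.15 and 0.896. The Sco2KO/KI library was the highest for Cldn16 and the lowest for Cldn19. In cluster 5 the mean of Cldn16 was 0.334% and that of Cldn19 1.76% of the mean in cluster 4, and in cluster 14 they were 40.6% and 36.8%. Cldn19 overlaps the antisense gene Gm12927.

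**Figure D2:**
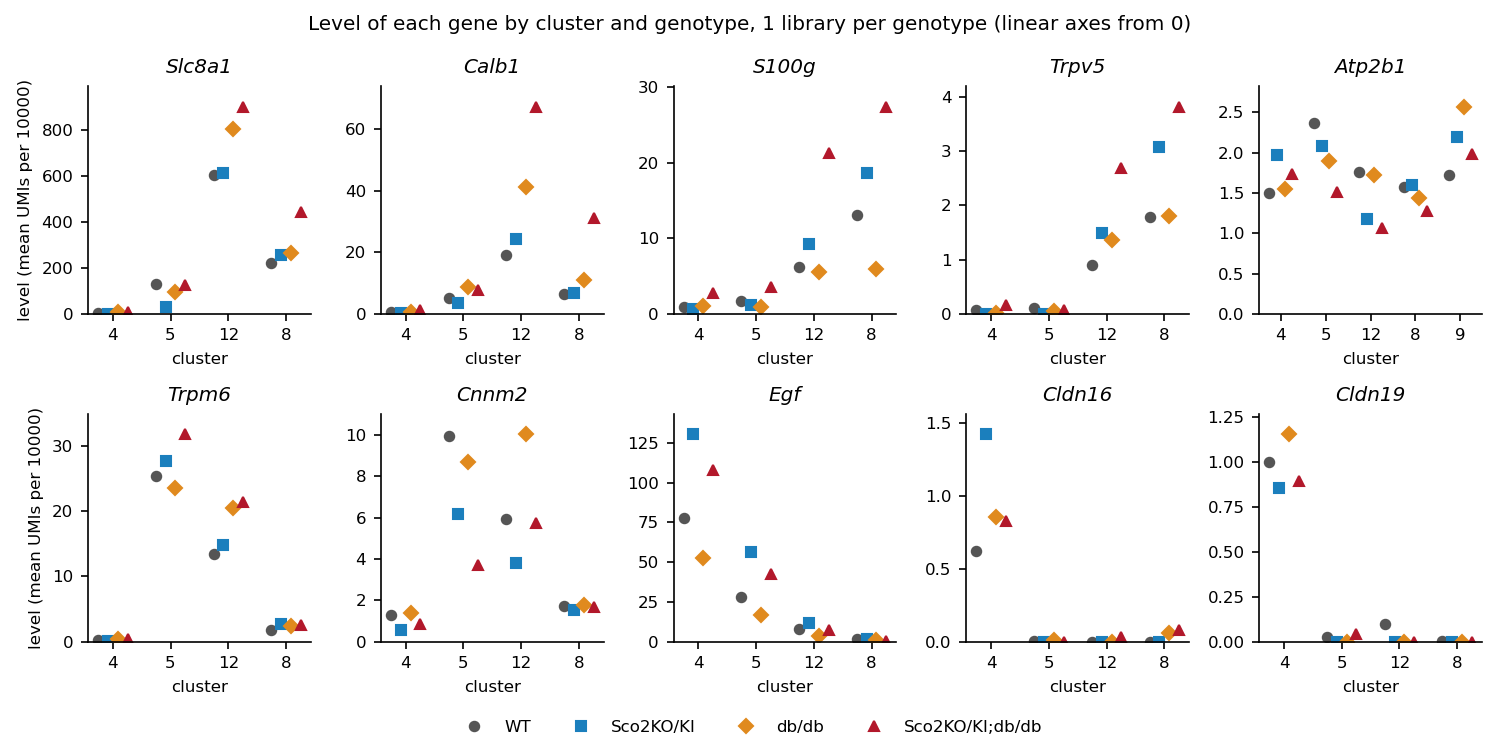
Level of each gene (mean UMIs per 10000 in a nucleus, linear axis from 0) in clusters 4, 5, 12 and 8, and for Atp2b1 also in cluster 9, with 1 point per library. The double mutant (triangles) is the highest point for Slc8a1, Calb1, S100g and Trpv5 in clusters 12 and 8, and the db/db library (diamonds) is the lowest for Egf in clusters 4, 5 and 12.

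The comparisons below use the log2 ratio of the levels after adding 0.1 to each, and call a gene higher or lower at 2-fold or more where at least 1 library is at 0.5 or above. The share of all genes called by the same rule, pooled over the 5 home clusters, is given beside each count. These shares were highest in the 2 comparisons that use the Sco2KO/KI library. The comparisons share libraries with each other, so their values are set side by side and no overlap is drawn from them.

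Sco2KO/KI was set against WT to read the Sco2 mutation in lean mice. In the home clusters 1 of the 10 genes was called higher, Cldn16, against 6.61% of all genes, and 0 were called lower, against 8.99%. The log2 ratio of Cldn16 was 1.08, a level 2.29 times that in WT, and it was 0.78 with a pseudocount of 0.5 and 0.96 with clusters 4 and 14 pooled. The next were Trpv5 at 0.75 and Egf at 0.74, and the lowest was Cnnm2 at -0.68. The median of the 10 genes was 0.34. In cluster 5 Egf was called higher at 1.01, where 4.59% of genes were, and Slc8a1 lower, where 5.76% were. In cluster 4 the genes called lower were 3 of the 8 with a level of 0.5 in either library, Slc8a1 at -2.54, Calb1 at -1.78 and Cnnm2 at -1.08, where 3.65% of genes were called lower and 2.25% higher. Their levels in WT and Sco2KO/KI were 5.04 and 0.783, 0.753 and 0.149, and 1.29 and 0.556, from 622 and 84 nuclei. Some markers of other segments were also lower there, with Slc12a3 at 2.73 and 0.611 and Aqp2 at 0.953 and 0.235. Others, such as Scnn1b at 0.113 and 0.138, were not. The part of these values in the calls was not tested.

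The contrast of db/db with WT gives the leptin receptor mutation with Sco2 intact. Calb1 was called higher in its home cluster, with a log2 ratio of 1.10, where 3.1% of all genes were called higher. S100g was called lower, at -1.13, against 7.86%, but was at -0.83 with clusters 8 and 12 pooled. The other 8 genes lay between -0.56 for Egf and 0.55 for Atp2b1. Egf was called lower in cluster 8 as well, at -1.08, where it was at 1.61 in WT, and its ratio was -1.22 in cluster 12 and -1.07 in cluster 14. Connecting tubule markers summed to 56.0 in WT and 40.1 in db/db in cluster 8. Among them Klk1 was at 20.1 and 6.80, and Scnn1b at 9.31 and 10.1. Distal convoluted tubule markers summed to 46.4 and 72.4 in that cluster, and the mitochondrially encoded share of its UMIs was 1.77% and 0.855%. Their part in the S100g value was not tested.

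The comparison of the double mutant with db/db addressed the Sco2 mutation on the db/db background and gave the most calls, together with the comparison with WT. S100g, Trpv5 and Egf were called higher, 3 of 10 genes against 4.43% of all, and Cnnm2 was called lower, against 3.82%. The log2 ratios were 2.19 for S100g, 1.04 for Trpv5, 1.03 for Egf and -1.21 for Cnnm2. Those of Trpv5 and Egf lay just past 2-fold: Trpv5 was at 0.91 with a pseudocount of 0.5, and Egf was 0.96 over clusters 4, 14 and 5. Cnnm2 was -0.78 over clusters 5, 12 and 10. In cluster 8 Calb1 was also called higher, at 1.49. Connecting tubule markers in cluster 8 summed to 60.1 in the double mutant against 40.1 in db/db, and 7 of 7 measured markers were above 0 in both. In the same order, Klk1 was at 17.8 and 6.80, Hsd11b2 at 8.37 and 3.24, and Scnn1g at 8.04 and 5.63. Scnn1b went the other way, at 9.54 and 10.1. The principal cell markers, which include Hsd11b2, Scnn1b and Scnn1g as well, summed to 44.1 in the double mutant and 33.9 in db/db there. In the same order, the mitochondrially encoded share was 1.83% and 0.855%. The part of these values in the calls was not tested.

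The comparison of the double mutant with Sco2KO/KI addressed the leptin receptor mutation in Sco2 mutant mice. Calb1 was called higher in its home cluster with a log2 ratio of 1.46, 1 of 10 genes against 6.23% of all, and 0 genes were called lower, against 8.97%. In cluster 8 its ratio was 2.15. S100g was at 0.55 in cluster 8 and at 1.19 in cluster 12, and Cldn16 was at -0.72 and Cnnm2 at -0.72 in their home clusters.

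The comparison of the double mutant with WT spans both mutations. Calb1, S100g and Trpv5 were called higher in their home clusters, 3 of 10 genes against 3.73% of all, with log2 ratios of 1.81, 1.06 and 1.06, though Trpv5 was at 0.92 with a pseudocount of 0.5. Cnnm2 was called lower at -1.40, against 7.13%, but was at -0.76 over clusters 5, 12 and 10 and at -0.04 in cluster 12. In cluster 8, 4 genes of the calcium route were called higher, Slc8a1 at 1.02, Calb1 at 2.23, S100g at 1.06 and Trpv5 at 1.06, where 1.75% of genes in that cluster were, and Atp2b1 of the same route was at -0.28. Egf was called lower there at -1.44, against 4.64%. Connecting tubule markers in cluster 8 summed to 56.0 in WT and 60.1 in the double mutant. Mitochondrially encoded genes made up 1.77%, 2.48%, 0.855% and 1.83% of its UMIs in the 4 libraries, lowest in db/db.

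**Figure D3:**
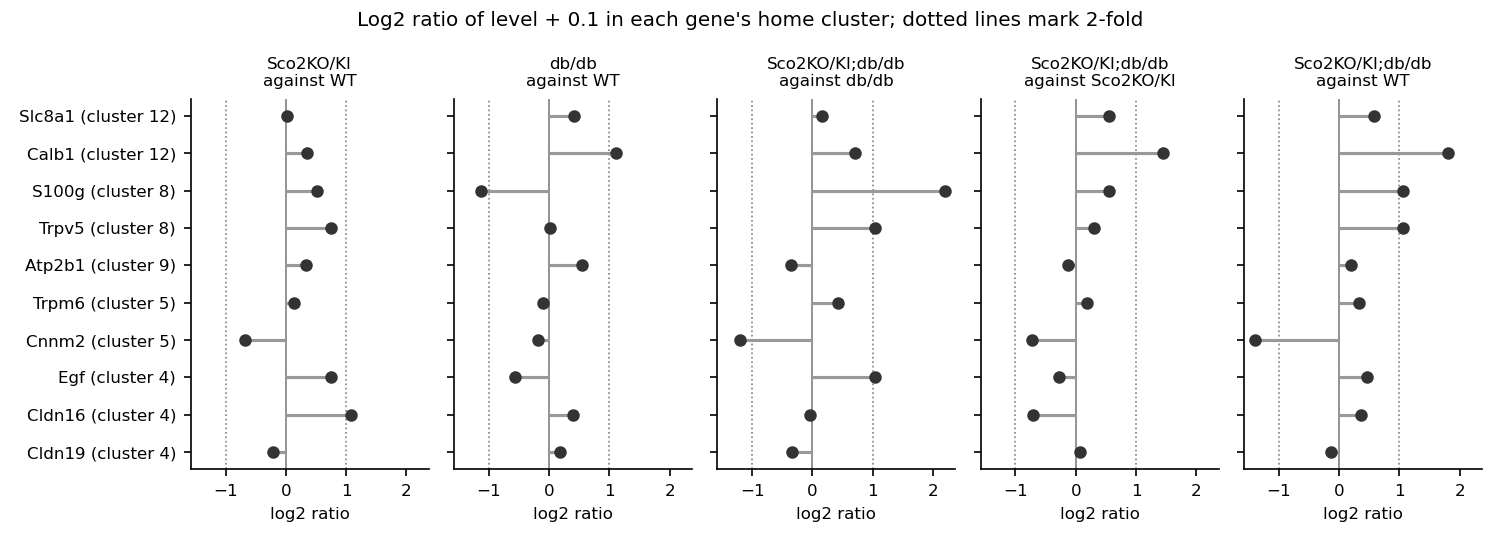
Log2 ratio of level + 0.1 for each gene in its home cluster (rows), for the 5 comparisons (panels), each point being 1 library against 1 library. S100g in the double mutant against db/db is the farthest from 0, at 2.19, and Slc8a1, Atp2b1, Trpm6 and Cldn19 stay within 2-fold in every panel.

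The Sco2 mutation was set beside itself on the 2 backgrounds by taking the log2 ratio of the double mutant to db/db minus that of Sco2KO/KI to WT in the home cluster. The difference was 1.68 for S100g, with ratios of 0.51 in lean and 2.19 in db/db mice. It was -1.12 for Cldn16, and between -0.68 and 0.35 for the other 8 genes. For Egf the 2 ratios were 0.74 and 1.03, and for Cnnm2 -0.68 and -1.21, so these went the same way on both backgrounds. None of these differences was tested.

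S100g exceeded its db/db level in every cluster of Sco2KO/KI;db/db that could be read. Its log2 ratio passed 2-fold in 18 of the 18 clusters with at least 20 nuclei in both libraries and a level of 0.5 in 1 of them, between 1.01 and 2.71, with a median of 1.84. Over the same clusters 7.12% of all pairs of gene and cluster were called higher. The 2.71 came from cluster 19, whose db/db level of 0.666 rests on 20 nuclei of about 1092 UMIs each. Few S100g molecules lie behind that value. In the proximal tubule-like class, where calbindin-D9k is not a typical product, S100g was at 0.796, 0.698, 0.542 and 2.32. These levels were 0.453, 0.403, 0.441 and 0.454 of the level over all nuclei of the same library. In the endothelium-like cluster 9 S100g was at 2.28, 1.93, 1.32 and 4.19. The share of the whole library's S100g signal that came from cluster 8 was 28.5%, 30.2%, 19.9% and 32.4%. RNA carried over between droplets was not measured, and its part in the levels outside clusters 8 and 12 was not tested.

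Slc8a1 in Sco2KO/KI showed the opposite spread. Against WT it was lower by 2-fold or more in 9 of 14 clusters, down to a log2 ratio of -2.54 in cluster 4, while clusters 8, 12 and 13 had 0.22, 0.02 and 0.47. Of all pairs of gene and cluster, 5.99% were called lower there. In the proximal tubule-like class it was at 2.58, 0.668, 2.76 and 3.64. These were 0.0577, 0.0228, 0.0493 and 0.0457 of the level over all nuclei, so that the Sco2KO/KI library, the deepest per nucleus, had the lowest share. Calb1 in the same class was at 0.472, 0.204, 0.364 and 1.29, shares of 0.251, 0.133, 0.105 and 0.199.

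Egf was below WT in 19 of 19 clusters of db/db, from -2.80 to -0.12, and past 2-fold in 12 of them, where 7.79% of all pairs were called lower. Its median over clusters was -1.08, lower than the -0.56 of its home cluster. In the proximal tubule-like class it was at 1.72, 0.921, 0.571 and 0.667. In cluster 8 the 10 thick ascending limb markers also had lower sums in both db/db libraries, with 14.99, 12.4, 8.45 and 8.93. Much of each sum was Kcnj1, which is also on the principal cell list and was at 5.84, 7.40, 3.53 and 5.50. Slc12a1 had another order there, at 3.55, 1.27, 1.61 and 0.587. The share of nuclei in cluster 4 was 12.1%, 7.12%, 7.15% and 3.40%, and the part of this share in the Egf values of other clusters was not tested.

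In the proximal tubule-like class 5 or 6 of the 10 genes reached a level of 0.5, depending on the comparison. Against WT, Slc8a1 was called lower in Sco2KO/KI, where 1.32% of all genes were called lower and 0.889% higher, and Egf was called lower in db/db, against 3.46%, with 0 higher, against 1.8%. Calb1 and S100g were called higher in the double mutant against db/db, where 2.74% of genes were, and 0 lower, against 1.18%. Against Sco2KO/KI, Slc8a1, Calb1 and S100g were called higher, where 2.4% were, and 0 lower, against 2.3%. Against WT, Calb1 and S100g were called higher and Egf lower, where 2.92% and 2.8% of genes were called.

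**Figure D4:**
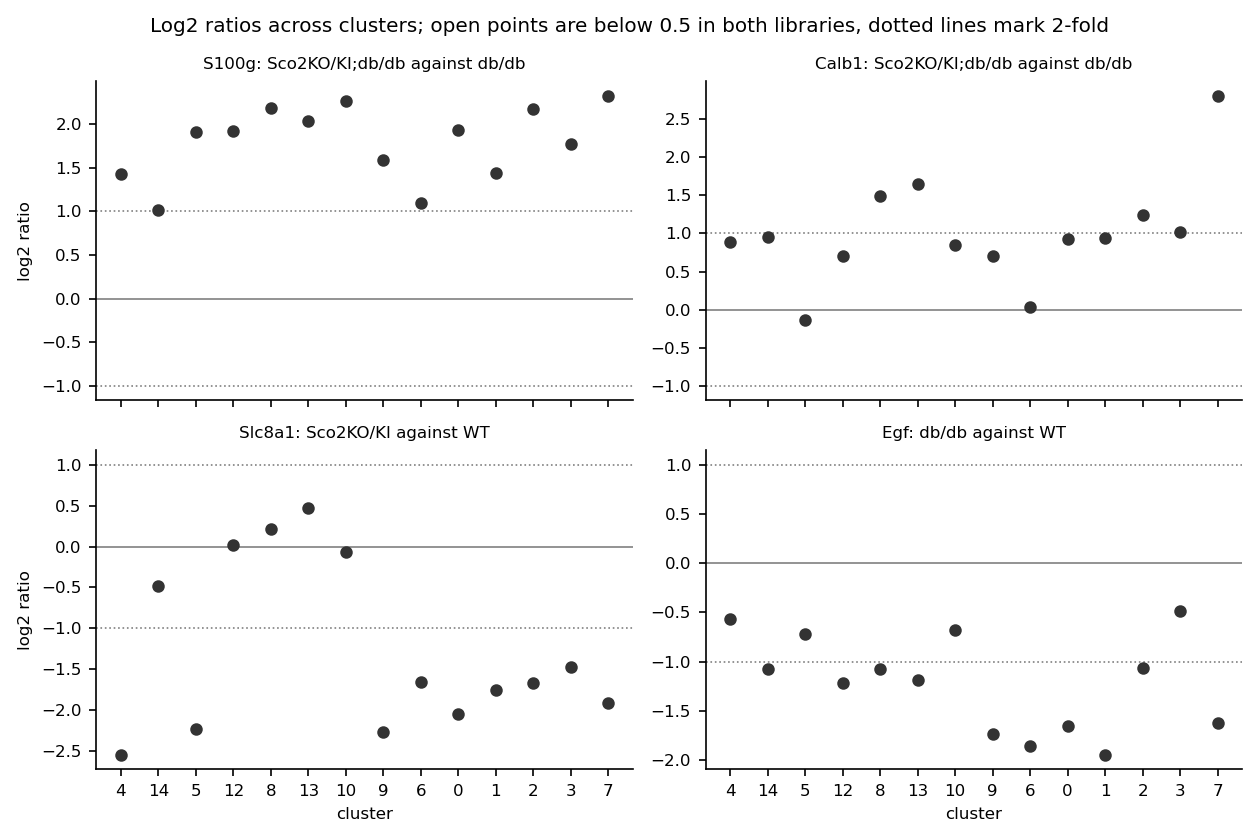
Log2 ratio of level + 0.1 in the 14 clusters with at least 20 nuclei in every library for 4 pairs of gene and comparison, each point being 1 library against 1 library. S100g lies above 2-fold in all 14, Slc8a1 in Sco2KO/KI lies near 0 in clusters 12, 8, 13 and 10 and low in most others, and Egf in db/db lies below 0 in all 14.

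Levels over all nuclei of a library depend on how many nuclei fell in each cluster. Egf over all nuclei was 14.9, 14.1, 6.61 and 8.33, and 14.9, 22.7, 9.11 and 19.3 when every library was given the cluster proportions of WT. In the double mutant, Egf was thus lower than in WT over all nuclei and higher at equal proportions. Cldn16 over all nuclei was 0.0984, 0.118, 0.0884 and 0.0413, and at WT proportions 0.0984, 0.189, 0.131 and 0.126. The same step changed Slc8a1 less, from 44.8, 29.3, 55.9 and 79.6 to 44.8, 35.1, 49.1 and 64.7. For S100g it gave 1.76, 2.02, 1.14 and 4.38 in place of 1.76, 1.73, 1.23 and 5.12.

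**Figure D5:**
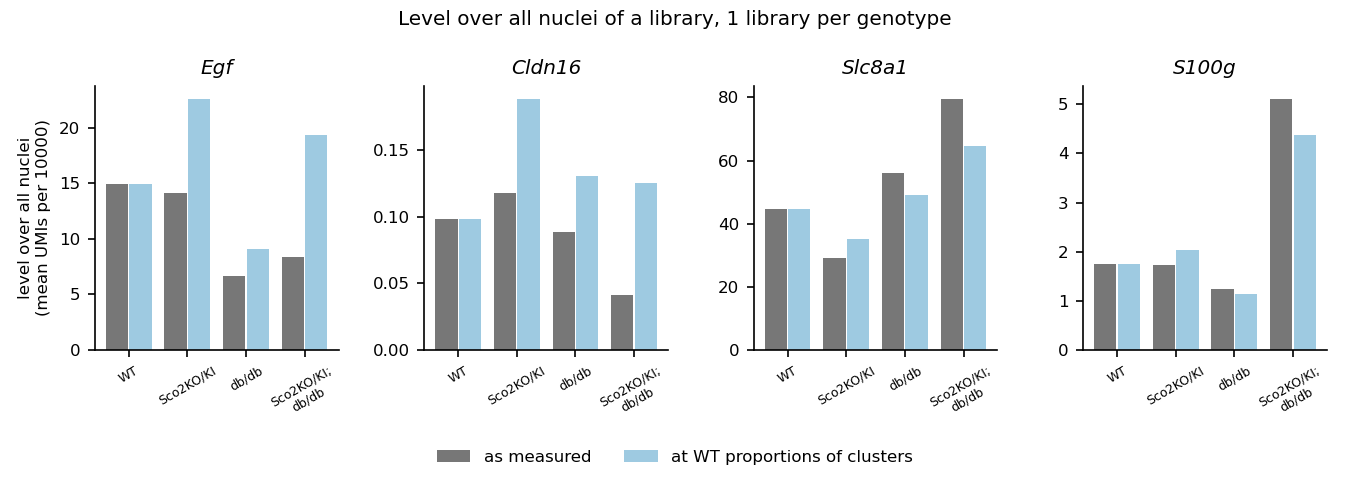
Level over all nuclei (bars, mean UMIs per 10000, axis from 0) of 4 genes in the 4 libraries, as measured (grey) and with the cluster proportions of WT (blue). Egf in the double mutant goes from 8.33 to 19.3, past the 14.9 of WT, while S100g stays highest in the double mutant either way.

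Other genes of calcium and magnesium balance were read from a list of 66 genes in the table, which holds hormone receptors, other channels and pumps, claudins and genes of inherited magnesium loss. In cluster 8, 34 of them were at 0.5 or above in db/db or WT, and 2 were called higher and 9 lower in db/db, with a median log2 ratio of -0.56 against -0.05 over all genes of that cluster. In that comparison 2.88% of all genes in cluster 8 were called higher and 9.48% lower. Among those called lower was Klk1, the protease tissue kallikrein and also a connecting tubule marker in the sums above, at 20.1 in WT and 6.80 in db/db. In the double mutant against db/db, 6 of 36 were called higher and 4 lower in cluster 8, with a median of 0.46 against -0.08 over all genes, where 4.38% and 2.8% of all genes were called. Among the 6 were Klk1, at 17.8 in the double mutant, the FGF23 co-receptor Kl at 7.45 and 18.04, and the calcium-binding S100a1 at 0.589 and 1.82.

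Over clusters 4, 5 and 8 pooled, 7 of 109 pairs of listed gene and cluster were called higher and 6 lower in Sco2KO/KI against WT, where 4.69% and 6.7% of all pairs were. For db/db against WT it was 3 and 14 of 107, against 2.39% and 6.42%. For the double mutant it was 12 and 5 of 108 against db/db, where 3.82% and 2.75% of all pairs were called. Against Sco2KO/KI it was 8 and 8 of 111, beside 5.44% and 7.23%, and against WT 8 and 7 of 110, beside 2.79% and 4.52%.

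The vitamin D and parathyroid hormone genes did not share 1 full order of the libraries. Cyp24a1, the enzyme that inactivates vitamin D, was at 0.714 in cluster 4, 0.616 in cluster 5 and 0.558 in cluster 8 of the double mutant, and at most 0.0983 there in the other libraries. Pth1r, the parathyroid hormone receptor, was at 2.52, 3.42, 3.85 and 7.68 in cluster 4. The vitamin D receptor gene Vdr was at 6.40, 6.72, 3.98 and 5.91 in cluster 8 and passed 2-fold in 0 of the comparisons there. In cluster 8 Pth1r was at 2.80, 2.47, 2.10 and 3.33, and Kl at 12.29, 17.23, 7.45 and 18.04. Like Vdr and S100g, both were lowest in db/db there, and like S100g both were highest in the double mutant. In cluster 12 the db/db library was the lowest for none of Pth1r, Kl and Vdr. Casr, the calcium-sensing receptor and a marker used to name cluster 4, was at 3.80, 8.62, 6.06 and 4.35 in that cluster.

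Among the magnesium genes of the list, Trpm7, the partner channel of TRPM6, was at 23.1, 39.6, 39.4 and 32.0 in cluster 5. Slc12a3, the thiazide-sensitive salt transporter of the distal convoluted tubule, was at 157.5, 152.5, 135 and 147 there and passed 2-fold in 0 of the comparisons in cluster 5. Pvalb, parvalbumin of the early distal convoluted tubule, was higher in the Sco2 mutant libraries, at 0.745, 2.55, 0.464 and 2.31 in cluster 5. Fxyd2, a sodium pump subunit of inherited magnesium loss, had a level of 11.5 in WT but 4.63 in db/db in cluster 8. In cluster 4 it went the other way, from 22.1 in WT to 40.7 in db/db. In cluster 4 the list gave 1 call higher and 0 lower in db/db against WT, where 2.28% and 4.33% of all genes in that cluster were called.

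Across the 83 cluster averages, Slc8a1 and Calb1 were each other's closest match among 12266 genes, with a Pearson r of 0.93 of log2(level + 0.1). Such values are a description: the 83 points share 4 libraries and a few clusters. Phactr1 and Tox3 followed for Slc8a1, and Phactr1 and Tmem52b for Calb1. S100g was closest to Trpv5, with an r of 0.79, then to Hhatl and Egfem1. Trpv5 was closest to Egfem1, Slc2a9 and S100g, with 0.83 for the first.

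Trpm6 and Cnnm2 shared Slc12a3 as their closest gene, with an r of 0.87 and 0.84, followed by Tsc22d1 and Scara5 for Trpm6 and by Tdrd3 and Klhl3 for Cnnm2. Cldn16 was closest to Gm44588, Tmem207 and Shd, with 0.87 for the first, and Cldn19 to Pla1a, Sim2 and Cldn16, with 0.80. Egf was closest to Tarm1, Gm49272 and Ppp1r1a, each with 0.80, and Atp2b1 to Rab10, Marf1 and Heatr5a, with 0.76 for Rab10. Slc8a1 also had an r of 0.75 with Trpm6 and 0.71 with Cnnm2, above its 0.63 with S100g, while it had 0.25 with Atp2b1, -0.08 with Cldn16 and -0.17 with Cldn19. With columns of at least 20 nuclei only, 18 of these 30 closest genes were found again.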

How the data were processed

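The authors deposited 1 table of normalised signal per gene, cluster and library: the mean over nuclei of UMIs scaled to 10000, read from column totals of 10000. It was made with Cell Ranger and Seurat on mm10, per the submitters' processing notes; versions, filters, clustering and doublets were not given in the sources used here. All 83 columns named a library, with 0 unassigned, and 25 date-named entries of 21481 were left out.

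Computed here (Python 3.11.15, pandas 2.3.3, NumPy 2.4.6, matplotlib 3.10.9): nuclei per column were recovered as the largest number dividing at least 80% of the 25 lowest values' whole quotients, 10000 over the value, at a relative tolerance of 1e-10, a step added after seeing the data. UMIs per nucleus are the harmonic mean of the remaining factors. Tested on data simulated from WT and Sco2KO/KI, 24 of 24 clusters gave the exact number of nuclei. Mean UMIs erred by -2.75% to 2.38% in the 21 of them with at least 20 nuclei. The 100 genes made 2-fold higher had a median log2 ratio of 0.93. Ratios used a pseudocount of 0.1 and a floor of 0.5, which understates low genes.

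The members, markers and lists were chosen with earlier results of these data known. Related genes named are a selection from those given by a rule, at most 5 per cluster, comparison and direction by size, and many of those are not named. Trpv6, Vdr, Trpm7 and Slc12a3 levels were added for their role. The 3 closest genes per member are named. With 1 library per genotype, no test, p-value or error was computed, and leaving a library out ends its comparison. Alternatives were pseudocounts of 0.5 and 0.01, other floors, totals without mitochondrial genes, centring and pooled clusters. Positions and overlaps are from GENCODE vM21, promoters from RefSeq. Protein sequences were not used here.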

Additional observations from a re-analysis of the deposited data

Results flagged for a closer look

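The values here stand out because the log2 ratios for the same mutation had opposite signs on the 2 backgrounds, in 1 library against 1 library. None of these differences was tested. For the Sco2 mutation, the log2 ratio in lean mice and then in db/db mice was -2.54 and 0.16 for Slc8a1 in cluster 4 and -2.22 and 0.41 in cluster 5. It was -1.78 and 0.89 for Calb1 in cluster 4. For S100g it was -0.37 and 1.43 in cluster 4 and -0.48 and 1.91 in cluster 5. For Cldn16 the ratios were 1.08 and -0.0409 in cluster 4, where db/db and the double mutant were nearly equal, at 0.851 and 0.825. The mean of cluster 4 was 0.628% of the highest cluster mean for Slc8a1 and 1.79% for Calb1. In home cluster 12 of these 2 genes both ratios were positive, with 0.02 and 0.16 for Slc8a1 and 0.35 and 0.70 for Calb1. Over clusters 5 and 12 together Slc8a1 had 262.6, 250.5, 305 and 403, so the Sco2KO/KI library lay close to WT there.

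The ratios for the leptin receptor mutation use the same 4 values per gene and cluster as those for the Sco2 mutation. The difference between the ratios is thus the same in both views and is not a further observation. For the leptin receptor mutation, the ratio with Sco2 intact and then with Sco2 mutated was -0.47 and 2.16 for Slc8a1 in cluster 5 and -0.27 and 2.40 for Calb1 in cluster 4. For S100g it was -0.88 and 1.51 in cluster 5, -1.13 and 0.55 in cluster 8 and -0.15 and 1.19 in cluster 12. For Egf it was -1.07 and 0.19 in cluster 14, which held 21 nuclei in Sco2KO/KI. In home cluster 12 of Slc8a1 and Calb1 the signs did not differ, with 0.41 and 0.56 for Slc8a1 and 1.10 and 1.46 for Calb1.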

How the results depend on the processing

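No paired analysis was possible because each genotype has 1 library. Direction was kept by every called value for a single gene under every alternative tried, and 337 single-gene values, called or not, kept their side of 2-fold while 10 did not. With a pseudocount of 0.5 in place of 0.1, members called higher in Sco2KO/KI against WT went from 1 to 0, and those whose Sco2 ratio was lower by 1 or more on the db/db background from 1 to 0. With the home cluster pooled with clusters at 25% or more of its mean, these also became 0 and 0, and members called lower became 0 in db/db against WT, 0 in the double mutant against db/db and 0 against WT, each from 1.

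In the proximal tubule-like class a pseudocount of 0.5 gave 0 members lower in db/db against WT, 1 higher in the double mutant against db/db, and 1 higher and 0 lower against WT, where the weighting by nuclei also gave 1 higher; the values with 0.1 were 1, 2, 2 and 1.

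The pairs of related gene and cluster called higher and lower with a pseudocount of 0.1 stand above with their background. A pseudocount of 0.5 made them 3 and 2 in Sco2KO/KI against WT, 1 and 6 in db/db against WT, 7 and 1 in the double mutant against db/db, 5 and 4 against Sco2KO/KI, and 4 and 3 against WT. Without a floor, 14 were lower in Sco2KO/KI against WT, 5 higher in db/db against WT, and 13 lower in the double mutant against WT. With a floor of 1.0, 2 were higher in the double mutant against Sco2KO/KI and 4 against WT, and with a pseudocount of 0.01, 13 were lower against Sco2KO/KI. With columns of at least 20 nuclei, 18 of the 30 closest genes were found again. The cause was not tested. Low levels limit Cldn16, Cldn19 and Trpv5, and 1 library per genotype limits all comparisons.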

Other observations

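Some clusters had fewer than 20 nuclei in a library and could not be home clusters. They entered the counts over clusters above only where both libraries compared had at least 20 nuclei, and their values are given here. Atp2b1 had its highest mean of any cluster in the leukocyte-like cluster 19, at 2.96, 8.17, 5.77 and 4.55, from 5, 13, 20 and 53 nuclei. Slc8a1 was at 67.5, 46.5, 22.3 and 21.8 in the type B intercalated cell-like cluster 11, from 158, 15, 164 and 215 nuclei, where both db/db libraries lay below both others, the opposite of clusters 8 and 12. S100g in cluster 11 was at 4.19, 4.79, 1.81 and 6.31. Egf in the podocyte-like cluster 15 was at 6.28, 6.63, 5.75 and 10.2.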
